A study of Mus musculus with 6 samples.

Results

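The 52 genes described here encode non-collagen proteins of the extracellular matrix: elastic fibre and microfibril proteins, adhesive and matricellular glycoproteins, proteoglycans and proteins that join the basement membrane to its surroundings. They were taken by symbol from a list of mouse genes that was chosen with earlier results of these data known. All 52 were found among the 52325 Ensembl IDs of the deposited table. By role they fall into 15 elastic fibre and microfibril genes, 20 adhesive and matricellular glycoproteins, 9 small leucine-rich proteoglycans, 2 other proteoglycans and 6 basement membrane linkers.

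The 6 libraries share their source: RNA of cells from mammary tumours in C57BL/6 mice that carry C3-T, a name that the labels do not define, and an Elf5-GFP reporter. Elf5 is an ETS transcription factor that drives alveolar differentiation of luminal cells in the mammary gland, and green fluorescent protein (GFP) stands for its expression. Tumours were digested with collagenase and hyaluronidase, cells were sorted with antibodies against CD45 (leukocytes), CD31 (endothelium) and TER119 (erythroid cells) to enrich tumour cells, and these were then divided by GFP. The design compares 2 Elf5+ (GFP-positive) with 4 Elf5- (GFP-negative) libraries. Sample titles carry one of 2 numbers and the code T1 or T2, none of which the labels explain. Pair 1 below is Elf5+ library 1 with Elf5- library 2, and pair 2 is Elf5+ library 2 with Elf5- library 4; all 4 carry T2, and each pair has its own number. Elf5- libraries 1 and 3 carry T1. Ages and the number of animals are not in the labels, so p-values measure the spread between these libraries, which may be technical in part.

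Matrix glycoproteins build the scaffold around cells and the sheets beneath epithelia. Fibrillins assemble into microfibrils, on which elastin is laid down with the help of fibulins and EMILINs and is crosslinked by lysyl oxidases; latent TGF-beta binding proteins (LTBPs) tether stored growth factor to the same fibrils. Small leucine-rich proteoglycans bind collagen fibrils and set their spacing, and matricellular proteins such as tenascin-C, periostin and thrombospondins modulate adhesion more than they bear load. In the mammary gland and its tumours fibroblasts make most of these proteins, while epithelial cells are known to contribute some, among them fibronectin and agrin. The values here are RNA of the sorted cells, not protein in the matrix.

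Library totals were 9106660 counts in Elf5- library 4 and 32602477 to 53694884 counts in the other 5. Elf5 itself was at 77.7 and 137.0 CPM (counts scaled to library size, with TMM factors) in Elf5+ libraries 1 and 2, against 10.7, 6.93, 10.5 and 24.7 CPM in Elf5- libraries 1 to 4. Across all 20684 genes tested, 121 were higher (0.585%) and 783 lower (3.79%) in Elf5+ cells at a Benjamini-Hochberg adjusted p below 0.05 in edgeR's quasi-likelihood test, the threshold behind every "rose" and "fell" in the text. Over all genes the log2 fold change had a median of 0.05. All 52 matrix genes passed the filter on low counts, 1 of them, Spock1, through the Elf5- libraries alone.

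Markers of other cell types moved with the sorts. Of 14 fibroblast markers 12 fell in Elf5+ cells, with a median log2 fold change of -4.68. Their summed level was 1509 and 962 CPM in Elf5+ libraries 1 and 2, against 25872, 17897, 49089 and 17750 CPM in Elf5- libraries 1 to 4. Both sorts held fibroblast marker RNA, more than an order of magnitude more of it in every Elf5- library. Of 9 pericyte and smooth muscle markers 6 fell, with sums of 124 and 183 CPM in Elf5+ libraries against 549 to 1364 CPM in Elf5- libraries. Of 12 endothelial markers 3 fell, and the summed level was 111 and 80.5 CPM in Elf5+ libraries against 238 to 295 CPM in Elf5- libraries, a low level in both sorts. Of 10 basal and myoepithelial markers 4 fell, Krt5, Acta2, Myh11 and Mylk, with log2 fold changes of -4.18, -4.08, -4.61 and -3.35 and a median of the list of -2.97; Acta2 and Myh11 are also in the pericyte and smooth muscle list. The basal keratin genes Krt14 and Krt17 had 0.52 and 0.27 and did not pass the test, and the sum was 1195 and 913 CPM in Elf5+ libraries against 995 to 1603 CPM in Elf5- libraries. None of 10 leukocyte markers passed the test, and Ptprc, which encodes CD45, was at 3.24 and 6.02 CPM in Elf5+ libraries and 3.97 to 14.6 CPM in Elf5- libraries. Of 18 luminal epithelial markers 10 rose, and they were detected in both sorts, at 9101 and 6362 CPM in sum in Elf5+ libraries against 2336 to 3946 CPM in Elf5- libraries. In such bulk samples fewer cells of a type and less RNA per cell cannot be told apart. The part of these markers in the results below was not tested.

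Most of the matrix genes were lower in Elf5+ cells. Of the 52 genes 33 fell (63.5%), against 3.79% of all genes tested, and 0 rose, against 0.585%. The median log2 fold change of the 52 was -3.83, with a range of -6.15 to 0.04, and 51 of the 52 values were negative. In 46 genes (88.5%) both Elf5+ libraries lay below every Elf5- library, which held for 14.8% of all genes tested, and in 0 genes did both lie above every Elf5- library (10.9% of all genes). The 6 genes with overlapping groups were Fbn2, Ltbp1, Ltbp3, Thbs1, Matn4 and Agrn. Of the 19 genes that did not pass the test 13 had no overlap between the groups. One of these 13, Spock1, passed the filter on low counts through the Elf5- libraries alone, so its place in these counts is no evidence of a difference. At an unadjusted p under 0.05, 44 of the 52 genes were lower and 0 higher. Of all 20684 genes tested, 2423 were lower and 1075 higher at that threshold.

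The count of genes that fell depended on which libraries were used. Without Elf5+ library 1 it was 31 (2.7% of all genes fell) and without Elf5+ library 2 it was 13 (0.893%). Without Elf5- libraries 1, 2, 3 and 4 in turn it was 20, 28, 26 and 35, where 1.23%, 2.72%, 1.66% and 3.99% of all genes fell. Of the 33 genes 12 fell whichever single library was left out: Fbn1, Emilin2, Mfap2, Tnxb, Smoc2, Thbs3, Ssc5d, Ogn, Aspn, Podn, Nid1 and Nid2. The T2 libraries alone, 2 of each sort, gave 0 called genes among the 51 in that fit and 0 (0%) among all genes (42 of the 51 lower at an unadjusted p under 0.05, and 1463 lower and 469 higher of all genes), while the median of the 51 was -3.27. With the title number as a block, which the labels do not say pairs the libraries, 44 of the 51 fell in the T2 libraries (7.05% of all genes), and 38 of the 52 in all 6 libraries (4.89%). Without Elf5- libraries 1 and 2, 10 of the 52 genes fell, against 0.372% of all genes. Scaled so that luminal epithelial genes matched between the sorts, all 52 fell with a median of -5.53, but so did 66.9% of all genes, whose median was then -1.63.

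**Figure D1:**
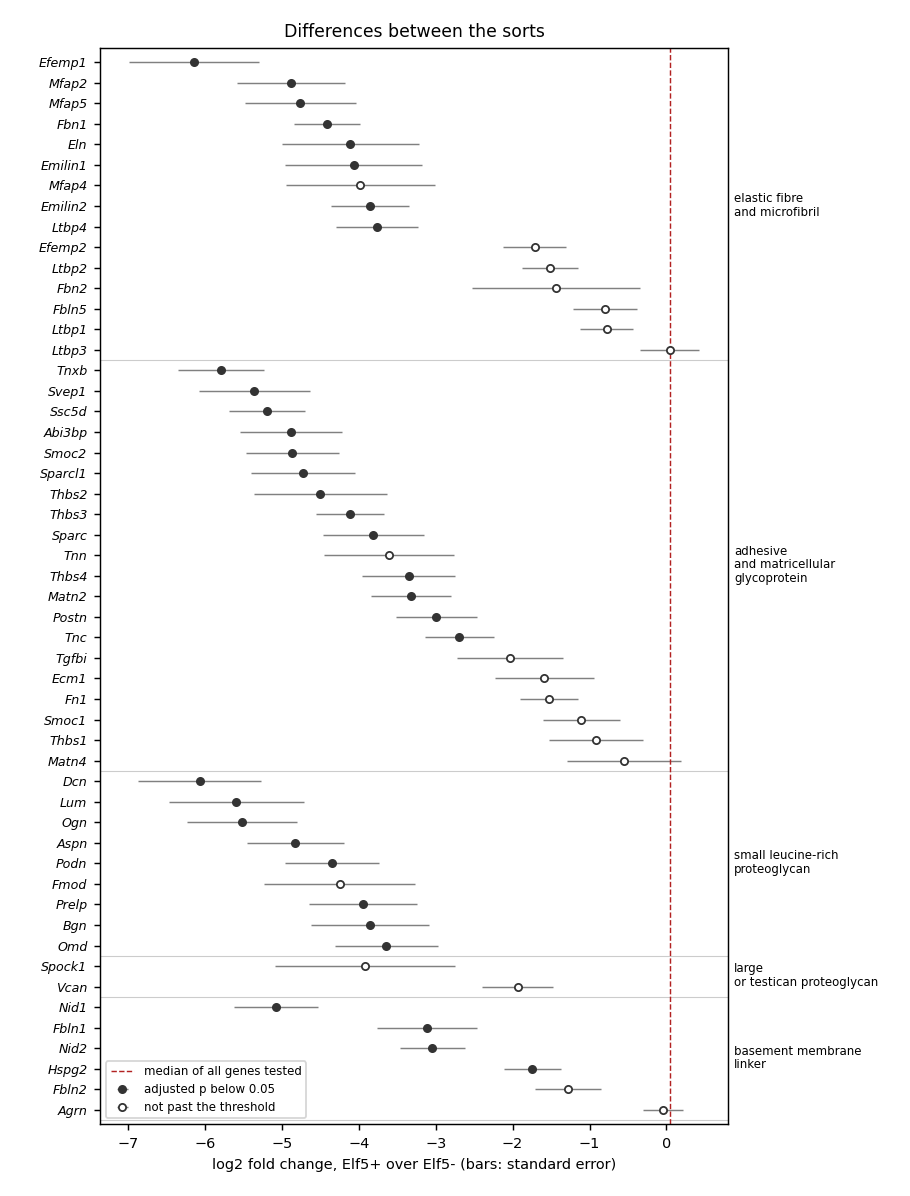
Log2 fold change of each of the 52 genes, Elf5+ over Elf5-, by role and sorted within it; bars are 1 standard error, filled points passed an adjusted p below 0.05, and the dashed line is the median of all genes tested (0.05). Values run from -6.15 for Efemp1 to 0.04 for Ltbp3, and each role holds both strongly negative values and values nearer the line except the small leucine-rich proteoglycans, all of which lie below -3.

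The elastic fibre and microfibril genes divided into 9 with log2 fold changes of -3.76 or below and 6 between -1.71 and 0.04. Of the 15 genes 8 fell and the other 7 did not pass the test, with a median of -3.85. The fibrillin Fbn1 and the small microfibril protein Mfap2 were among those that fell most, and the 4 LTBPs lay between -3.76 and 0.04.

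Fbn1 (ENSMUSG00000027204, chr2:125300594-125507993, minus strand) encodes fibrillin-1, the main structural protein of microfibrils. Gene positions here and below are those of GRCm38. It was at 59.4 and 43.9 CPM in Elf5+ libraries 1 and 2, and at 904, 978, 1616 and 917 CPM in Elf5- libraries 1 to 4. The Elf5- libraries stood far above both Elf5+ libraries, with library 3 highest, and the log2 fold change was -4.42 with a standard error (SE) of 0.43 (edgeR adjusted p = 0.01). The Fbn1 exons share 20.1% of their bases with the opposite-strand gene Gm9913, the largest such overlap among the 52 genes, but Gm9913 itself averaged 0.174 CPM in Elf5+ libraries and 1.87 CPM in Elf5- libraries. Fibrillin-2, encoded by Fbn2 and best known from development, behaved differently: it was at 3.46 and 60.3 CPM in Elf5+ libraries and at 49.1, 26.8, 87.6 and 183 CPM in Elf5- libraries. Its groups overlapped, and the log2 fold change of -1.44 (SE 1.09) did not pass the test (edgeR adjusted p = 0.602).

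Efemp1 (ENSMUSG00000020467, chr11:28853204-28926743, plus strand), which encodes fibulin-3, had the most negative log2 fold change of all 52 genes. It was at 4.23 and 2.19 CPM in Elf5+ libraries and at 319, 105, 384 and 101 CPM in Elf5- libraries 1 to 4, so that the 2 T1 libraries were about 3 times as high as the 2 T2 libraries within the Elf5- group. The log2 fold change was -6.15 (SE 0.85, edgeR adjusted p = 0.013), and it missed the threshold without Elf5+ library 2, at -5.75 (adjusted p = 0.0516). The closely related Efemp2, fibulin-4, which is needed for elastin crosslinking, was at 69.2 and 35.2 CPM in Elf5+ libraries and at 133 to 257 CPM in Elf5- libraries, with a log2 fold change of -1.71 (SE 0.41, edgeR adjusted p = 0.0602). Fbln5, the third of these short fibulins, was at 33.9 and 17.5 CPM in Elf5+ libraries against 34.6 to 71.6 CPM in Elf5- libraries and had a log2 fold change of -0.80 (SE 0.41, edgeR adjusted p = 0.398). In both genes all Elf5- libraries exceeded both Elf5+ libraries, though for Fbln5 the gap between the nearest libraries was under 1 CPM.

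Mfap2 encodes a small glycoprotein that decorates microfibrils. Its level was 1.91 and 0.619 CPM in Elf5+ libraries, against 32.6, 26.7, 65.3 and 23.8 CPM in Elf5- libraries. The groups were well separated (log2 fold change -4.88, SE 0.70, edgeR adjusted p = 0.0132). Its relative Mfap5 fell by 4.76 on the log2 scale, a call lost without Elf5+ library 2 (edgeR adjusted p = 0.0654). Mfap4, an integrin-binding glycoprotein of elastic fibres, had -3.98 and did not pass the test (edgeR adjusted p = 0.0646) in the fit of all 6 libraries; it was called in 6 of 18 alternative settings, among them the one without Elf5+ library 1 (0.0322). Elastin itself, Eln, was at 54.6 and 12.3 CPM in Elf5+ libraries and at 333, 613, 1110.3 and 256 CPM in Elf5- libraries, a log2 fold change of -4.11 (SE 0.89, edgeR adjusted p = 0.0458). It lay near the threshold and missed it without any one of Elf5- libraries 1, 2 and 3 or Elf5+ library 2 (adjusted p 0.0751 to 0.122). The EMILINs, which sit at the surface of elastic fibres, fell by 4.07 (Emilin1) and 3.85 (Emilin2) on the log2 scale, and Emilin1 lost its call without the same 4 libraries (adjusted p 0.0597 to 0.123).

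The 4 LTBPs attach to microfibrils, and all but LTBP2 are known to bind latent TGF-beta. Ltbp4 fell by 3.76 on the log2 scale (SE 0.53, edgeR adjusted p = 0.0132), with 16.0 and 7.99 CPM in Elf5+ libraries against 268, 121, 152 and 109.7 CPM in Elf5- libraries, and its adjusted p was 0.0501 without Elf5+ library 2. Ltbp2 was at 182 and 109 CPM in Elf5+ libraries against 324 to 593 CPM in Elf5- libraries, with no overlap and a log2 fold change of -1.51 (SE 0.36, edgeR adjusted p = 0.0618). Ltbp1 was at 133 and 112 CPM in Elf5+ libraries and at 195, 225, 291 and 128 CPM in Elf5- libraries. Elf5+ library 1 lay above Elf5- library 4, and the log2 fold change of -0.78 (SE 0.34) did not pass the test (edgeR adjusted p = 0.307). Ltbp3 (ENSMUSG00000024940, chr19:5740904-5758532, plus strand) was the one gene of the 52 with a positive value. It was at 399 and 596 CPM in Elf5+ libraries and at 329, 476, 370.1 and 755 CPM in Elf5- libraries. The groups overlapped fully, with the highest Elf5- library above both Elf5+ libraries, and the log2 fold change was 0.04 (SE 0.39, edgeR adjusted p = 0.975), a value whose sign turned under 7 of 18 alternative settings. Set against each other within a library, the log2 ratio of Ltbp4 to Ltbp3 was -4.55 and -6.05 in Elf5+ libraries and -0.29, -1.96, -1.27 and -2.77 in Elf5- libraries, a comparison chosen after the values were seen.

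The promoter of Ltbp3 is shown because this was the one gene of the list with a positive value, for comparison with the promoters of genes that fell, printed below. The window runs from 250 bases before to 50 bases after the annotated start (RefSeq, GRCm38.p6, chr19:5740650-5740949, plus strand). Capitals mark a match to TGANTCA, a pattern that covers the recognition sequence of AP-1 factors but takes any base at N. The pattern reads the same on both strands.
Ltbp3: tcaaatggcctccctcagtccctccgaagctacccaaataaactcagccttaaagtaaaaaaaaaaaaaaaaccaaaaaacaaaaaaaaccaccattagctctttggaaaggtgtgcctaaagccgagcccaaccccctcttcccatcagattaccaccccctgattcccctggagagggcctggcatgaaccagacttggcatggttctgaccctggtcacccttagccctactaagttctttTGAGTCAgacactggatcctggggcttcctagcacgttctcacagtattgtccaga

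Adhesive and matricellular glycoproteins made up the largest share of the summed CPM of the 52 genes in both sorts. Collagens are not among the 52, and these sums are not corrected for gene length. Of the 20 genes 13 fell and 7 did not pass the test, with a median log2 fold change of -3.48. Their summed level was 4841 and 5651 CPM in Elf5+ libraries, against 18021, 17583, 29183 and 19771 CPM in Elf5- libraries. This was 65.1% and 67.8% of the summed CPM of all 52 genes in Elf5+ libraries and 61.7% to 66.9% in Elf5- libraries.

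Fn1 (ENSMUSG00000026193, chr1:71585520-71653200, minus strand) encodes fibronectin, the adhesive glycoprotein on which other matrix is assembled, and had the highest level of the 52 in both sorts. It was at 3515 and 3949.6 CPM in Elf5+ libraries and at 8434, 9312, 13086 and 12248 CPM in Elf5- libraries. Every Elf5- library exceeded both Elf5+ libraries, but the log2 fold change of -1.53 (SE 0.37) did not pass the test (edgeR adjusted p = 0.065). Fibronectin made up 47.3% ± 0.070 (SD, n = 2) of the summed CPM of the 52 genes in Elf5+ libraries and 32.8% ± 6.11 (SD, n = 4) in Elf5- libraries.

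Sparc (ENSMUSG00000018593, chr11:55394500-55423183, minus strand) encodes osteonectin, a collagen-binding matricellular protein. Its level was 357 and 134 CPM in Elf5+ libraries, against 3022, 2838, 5897 and 2049.7 CPM in Elf5- libraries. The lowest Elf5- library was several times above the highest Elf5+ library, and Sparc had a log2 fold change of -3.81 (SE 0.66, edgeR adjusted p = 0.0215). Without Elf5- library 1 or Elf5+ library 2 its adjusted p was 0.0613 and 0.0783. Its relative Sparcl1, hevin, fell by 4.72 on the log2 scale (SE 0.68, edgeR adjusted p = 0.0132; 0.0501 without Elf5+ library 2). Smoc1 and Smoc2 encode calcium-binding proteins of the same family and gave different values. Smoc2 fell by 4.86 (SE 0.60, edgeR adjusted p = 0.0114), whereas Smoc1, with 55.1 and 91.0 CPM in Elf5+ libraries against 92.1 to 267 CPM in Elf5- libraries, had -1.11 (SE 0.50, edgeR adjusted p = 0.319).

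Postn (ENSMUSG00000027750, chr3:54361109-54391037, plus strand) encodes periostin, a matricellular protein of collagen-rich and tumour stroma. It was at 179 and 386 CPM in Elf5+ libraries and at 1865, 1668, 3561 and 1894 CPM in Elf5- libraries. Here Elf5+ library 2 was the higher of the 2, the reverse of most of the 52 genes, and both lay below every Elf5- library. The log2 fold change was -2.99 (SE 0.52, edgeR adjusted p = 0.0222), and the call was lost without Elf5- library 1 or either Elf5+ library (adjusted p 0.0501 to 0.0658). Its relative Tgfbi had a log2 fold change of -2.03 (SE 0.69, edgeR adjusted p = 0.173).

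The tenascins are large glycoproteins with different distributions: tenascin-C appears in remodelling and tumour stroma, tenascin-X in connective tissue, and tenascin-N, also called tenascin-W, mainly around bone and in some tumours. Tnxb (ENSMUSG00000033327, chr17:34670535-34719815, plus strand) was at 9.61 and 9.08 CPM in Elf5+ libraries and at 690.0, 258, 693 and 436 CPM in Elf5- libraries. No other adhesive gene was so far apart between the sorts, with a log2 fold change of -5.80 (SE 0.56, edgeR adjusted p = 0.01). Tnc was at 129.7 and 173 CPM in Elf5+ libraries against 628 to 1556 CPM in Elf5- libraries, and fell by 2.70 (SE 0.45, edgeR adjusted p = 0.0189), a call lost without either Elf5+ library (adjusted p 0.0694 and 0.0675). Tnn, at 0.967 and 1.22 CPM in Elf5+ libraries against 3.70 to 21.5 CPM in Elf5- libraries, did not overlap between the groups but did not pass the test (log2 fold change -3.60, SE 0.84, edgeR adjusted p = 0.0564).

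Svep1, a large cell adhesion protein with sushi domains, was at 5.53 and 3.66 CPM in Elf5+ libraries and at 141, 92.2, 379 and 144 CPM in Elf5- libraries. It fell by 5.36 on the log2 scale (SE 0.72, edgeR adjusted p = 0.0121), and its adjusted p was 0.0519 without Elf5+ library 2. Ssc5d, a soluble scavenger receptor cysteine-rich protein, and Abi3bp, an ABI3-binding matrix protein, had similar values, with log2 fold changes of -5.19 (SE 0.49) and -4.89 (SE 0.66; edgeR adjusted p = 0.0518 without Elf5+ library 2). The matrilin Matn2, a filament-forming adaptor, fell by 3.33 (edgeR adjusted p = 0.0535 without Elf5- library 1). Its relative Matn4 was at 10.7 and 1.45 CPM in Elf5+ libraries and at 5.85, 11.5, 12.4 and 5.86 CPM in Elf5- libraries. Elf5+ library 1 lay inside the range of the Elf5- libraries and Elf5+ library 2 below it, so that Matn4 had a log2 fold change of -0.55 (SE 0.74, edgeR adjusted p = 0.79), which was 0.26 without Elf5+ library 2.

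Thrombospondins are multimeric glycoproteins that bind matrix, growth factors and cell surface receptors, and thrombospondin-1 is a known activator of latent TGF-beta. The log2 fold changes of Thbs2, Thbs3 and Thbs4, all of which fell, were -4.50 (SE 0.87), -4.12 (SE 0.44) and -3.35 (SE 0.60). Thbs2 lost its call without Elf5- library 1 or either Elf5+ library, and Thbs4 without Elf5- library 1 or 3 or either Elf5+ library (adjusted p up to 0.117 and 0.0753). Thbs1 differed between the 2 Elf5+ libraries as much as between the sorts: it was at 161 and 791 CPM in Elf5+ libraries and at 1153, 549, 1112 and 779 CPM in Elf5- libraries. Elf5+ library 2 lay within the Elf5- range and library 1 below it, and the log2 fold change of -0.92 (SE 0.62) did not pass the test (edgeR adjusted p = 0.546). Ecm1, extracellular matrix protein 1, was also uneven in the Elf5+ group, at 296 and 54.5 CPM, against 520.2, 731, 504 and 353 CPM in Elf5- libraries, and its log2 fold change of -1.59 (SE 0.64, edgeR adjusted p = 0.258) was -3.27 (adjusted p = 0.0262) without Elf5+ library 1.

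**Figure D2:**
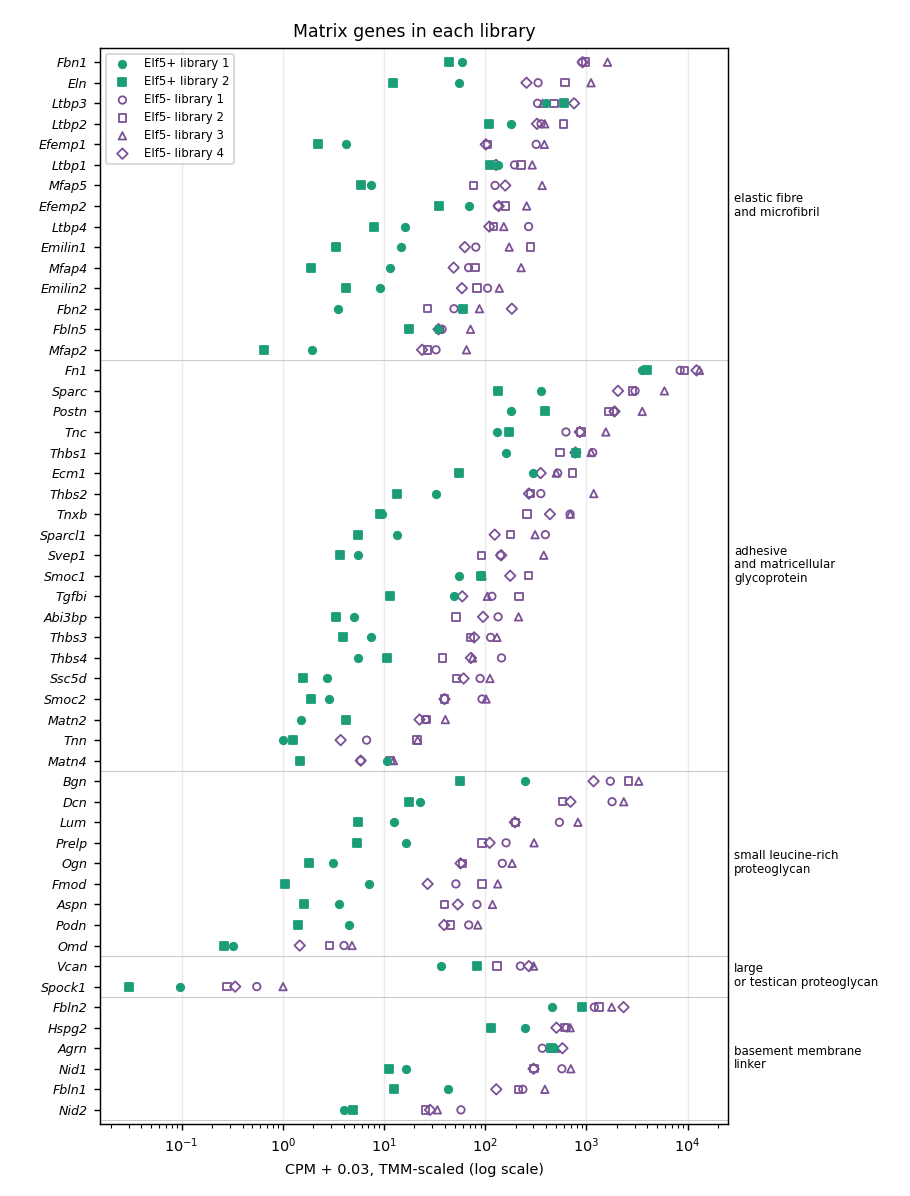
Level of each of the 52 genes in each of the 6 libraries, as TMM-scaled CPM plus 0.03 on a log axis, by role and sorted within it by level; filled green symbols are Elf5+ libraries and open purple symbols Elf5- libraries. Green symbols lie left of all purple symbols in 46 rows, and the rows in which they mix are Ltbp3, Ltbp1, Fbn2, Thbs1, Matn4 and Agrn.

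Small leucine-rich proteoglycans, which coat collagen fibrils, were lower in Elf5+ cells. Of 9 genes 8 fell, the ninth, Fmod, did not pass the test (edgeR adjusted p = 0.0546), and the log2 fold changes ran from -6.07 to -3.64 with a median of -4.35. In all 9 both Elf5+ libraries lay below every Elf5- library. The summed level was 317 and 90.4 CPM in Elf5+ libraries, against 4569.9, 3702, 7279 and 2357 CPM in Elf5- libraries. As a share of the summed CPM of the 52 genes, they made up 4.26% and 1.08% in Elf5+ libraries and 15.6%, 13.1%, 15.6% and 7.97% in Elf5- libraries 1 to 4. Fibroblast markers, the list with the summed levels given above, had a median log2 fold change of -4.68, close to that of these genes. Pericyte and smooth muscle markers had -4.61, and 10 skeletal muscle markers, none of which passed the test, had -4.72. In sum, the 9 proteoglycans, the fibroblast markers and the luminal epithelial markers were each highest of the Elf5- group in library 3. Pericyte and smooth muscle markers were highest in Elf5- library 1. The part of these lists was not tested.

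Dcn (ENSMUSG00000019929, chr10:97479609-97518143, plus strand) encodes decorin, which binds collagen fibrils and several growth factors. It was at 22.6 and 17.6 CPM in Elf5+ libraries and at 1793, 581, 2338 and 696 CPM in Elf5- libraries 1 to 4. Within the Elf5- group the 2 T1 libraries were more than 2 times as high as the 2 T2 libraries, and all 4 were far above the Elf5+ libraries. The log2 fold change was -6.07 (SE 0.81, edgeR adjusted p = 0.0121), and the adjusted p was 0.0511 without Elf5+ library 2. Lum, which encodes lumican and regulates collagen fibril diameter, lies next to Dcn on chromosome 10 with 47.0 kb between the genes. It was at 12.7 and 5.54 CPM in Elf5+ libraries and at 541, 198, 825 and 196 CPM in Elf5- libraries, the same order of the Elf5- libraries by code as for Dcn. Lum fell by 5.60 on the log2 scale (SE 0.88, edgeR adjusted p = 0.0163), and missed the threshold without Elf5- library 1 or Elf5+ library 2 (adjusted p 0.0535 and 0.0642).

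Bgn (ENSMUSG00000031375, chrX:73483602-73495933, plus strand) encodes biglycan, a close relative of decorin that carries glycosaminoglycan chains. It was at 247 and 55.8 CPM in Elf5+ libraries and at 1721, 2589, 3288 and 1177 CPM in Elf5- libraries. Biglycan was the most abundant of the 9 in both sorts per kb of exon, and Elf5+ library 1 held over 4 times the level of Elf5+ library 2. Its log2 fold change was -3.86 (SE 0.76, edgeR adjusted p = 0.0334), lost without Elf5- library 1, 2 or 3 or Elf5+ library 2 (adjusted p 0.0599 to 0.0838).

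Aspn (asporin), Omd (osteomodulin) and Ogn (osteoglycin, also called mimecan) lie in a row on the plus strand of chromosome 13, with gaps of 14.9 and 15.2 kb between them. Aspn was at 3.60 and 1.59 CPM in Elf5+ libraries and at 82.8, 39.8, 118 and 53.6 CPM in Elf5- libraries, a log2 fold change of -4.83 (SE 0.63, edgeR adjusted p = 0.0121). Ogn was at 3.13 and 1.78 CPM in Elf5+ libraries and at 147, 59.9, 184 and 57.1 CPM in Elf5- libraries, a log2 fold change of -5.52 (SE 0.72, edgeR adjusted p = 0.0121). Omd, between them, was far less abundant, at 0.292 and 0.232 CPM in Elf5+ libraries and at 3.99, 2.87, 4.80 and 1.44 CPM in Elf5- libraries. All 3 genes were lower in both Elf5+ libraries than in any Elf5- library. In every Elf5- library Omd lay more than an order of magnitude below Aspn and Ogn. Omd rested on 25 counts in the 2 Elf5+ libraries together and 524 in the 4 Elf5- libraries, and its log2 fold change was -3.64 (SE 0.67, edgeR adjusted p = 0.0265). That call was lost when any single library except Elf5- library 4 was left out (adjusted p 0.051 to 0.114).

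The 3 promoters are printed because these neighbouring genes differed in the same direction and so that their starts can be compared. That direction is not particular to them, since 51 of the 52 genes had a negative log2 fold change. Each is the window from 250 bases before to 50 after the annotated start on the plus strand (RefSeq, GRCm38.p6): chr13:49544193-49544492 for Aspn, chr13:49582212-49582511 for Omd and chr13:49607765-49608064 for Ogn. Capitals mark matches, on either strand, to TATAAA (the letters of the TATA box) and CACCTG (an E-box bound by ZEB and SNAIL factors). They also mark TGANTCA (the pattern that covers the AP-1 site) and GGAAGT (a core of ETS sites).
Aspn: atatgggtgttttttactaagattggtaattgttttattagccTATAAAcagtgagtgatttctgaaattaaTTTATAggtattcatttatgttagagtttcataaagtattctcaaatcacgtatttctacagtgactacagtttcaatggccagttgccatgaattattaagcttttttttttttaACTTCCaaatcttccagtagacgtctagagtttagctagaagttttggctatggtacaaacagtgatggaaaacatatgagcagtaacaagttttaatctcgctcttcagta
Omd: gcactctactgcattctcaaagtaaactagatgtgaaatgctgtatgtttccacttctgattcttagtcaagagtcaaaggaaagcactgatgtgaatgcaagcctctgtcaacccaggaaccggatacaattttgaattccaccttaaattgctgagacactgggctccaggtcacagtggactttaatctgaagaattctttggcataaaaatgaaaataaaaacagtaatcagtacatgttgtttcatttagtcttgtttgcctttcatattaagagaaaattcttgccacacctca
Ogn: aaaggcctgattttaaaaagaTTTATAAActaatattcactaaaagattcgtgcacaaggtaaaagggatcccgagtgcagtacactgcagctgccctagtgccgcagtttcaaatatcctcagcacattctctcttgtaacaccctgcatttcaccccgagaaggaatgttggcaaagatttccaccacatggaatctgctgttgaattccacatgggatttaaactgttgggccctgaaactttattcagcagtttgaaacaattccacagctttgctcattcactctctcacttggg

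The Aspn window held 2 matches to TATAAA, 1 on each strand, and 1 match to GGAAGT on the minus strand. The Ogn window held 2 matches to TATAAA that overlap on opposite strands, and the Omd window held no match to any of the 4 motifs. All of these TATAAA matches lie far before the annotated start. The GC content was 31.0%, 37.7% and 42.3% in Aspn, Omd and Ogn, against a median of 52.7% over the 32851 promoter windows of the table. The 51 windows found for the 52 genes had a higher median, 60.3%, and the 31 windows of genes that fell had 55.3%. Among the 52 genes, 37 had a window in the table, 51 windows in all, of which 15.7% held TATAAA, 13.7% CACCTG, 9.8% TGANTCA and 13.7% GGAAGT. The shares over all 32851 windows were 13.6%, 20.2%, 7.8% and 23.8%. TATAAA was in 7 of 31 windows of genes that fell (22.6%) and in 1 of 20 windows of genes that did not pass the test (5.0%). These matches describe letters only, genes with several starts count once per start, and no test was made.

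The other 3 genes of the family, Prelp, Fmod and Podn, were also lower in both Elf5+ libraries than in any Elf5- library. Prelp, a heparan sulfate-binding anchor of collagen, fell by 3.94 on the log2 scale (SE 0.70, edgeR adjusted p = 0.0245), and its neighbour on chromosome 1, Fmod, 115.8 kb away, encodes fibromodulin and was at 7.02 and 1.03 CPM in Elf5+ libraries against 51.3, 93.4, 133 and 26.9 CPM in Elf5- libraries. Prelp lost its call without Elf5- library 1 or Elf5+ library 2 (adjusted p 0.0716 and 0.0774). Fmod (log2 fold change -4.25, SE 0.98) passed without Elf5+ library 1 or Elf5- library 4 (adjusted p 0.0275 and 0.0376). Podn, podocan, fell by 4.35 (SE 0.61, edgeR adjusted p = 0.0132).

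Neither of the 2 other proteoglycans passed the test. Vcan encodes versican, a large hyaluronan-binding chondroitin sulfate proteoglycan. It was at 36.9 and 83.9 CPM in Elf5+ libraries and at 223, 130.4, 301 and 269.9 CPM in Elf5- libraries, with no overlap and a log2 fold change of -1.93 (SE 0.46, edgeR adjusted p = 0.0616), which was -2.13 (adjusted p = 0.0447) without Elf5- library 2. Spock1, testican-1, was barely detected, with 3 and 0 counts in Elf5+ libraries and 24, 8, 48 and 3 counts in Elf5- libraries. Since the Elf5- libraries alone carried it through the filter on low counts, its values are a description. Scaled for library size, the summed counts of the Elf5- libraries were 19.5 times those of the Elf5+ libraries (95% exact interval 6.44 to 96.4, counting error only), and the log2 fold change was -3.92 (SE 1.17, edgeR adjusted p = 0.12).

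Basement membrane linkers held both a gene that fell by more than 5 on the log2 scale and Agrn, a gene with almost no difference. Of the 6 genes 4 fell, with a median of -2.40. Nid1 (ENSMUSG00000005397, chr13:13437551-13512269, plus strand) encodes nidogen-1, which joins laminin to collagen IV. It was at 16.6 and 11.2 CPM in Elf5+ libraries and at 572, 305, 701 and 301 CPM in Elf5- libraries. The 2 T1 libraries were again the higher Elf5- libraries, and Nid1 had a log2 fold change of -5.08 (SE 0.55, edgeR adjusted p = 0.01). Nid2, nidogen-2, fell by 3.04 (SE 0.42, edgeR adjusted p = 0.0132).

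Agrn (ENSMUSG00000041936, chr4:156165290-156197488, minus strand) encodes agrin, a heparan sulfate proteoglycan of basement membranes. Its level was 478 and 446 CPM in Elf5+ libraries, and 366, 463, 495 and 579 CPM in Elf5- libraries. Both Elf5+ libraries lay inside the Elf5- range, and the log2 fold change was -0.04 (SE 0.27, edgeR adjusted p = 0.964), with a sign that turned when Elf5+ library 2 or Elf5- library 4 was left out. Hspg2, which encodes perlecan, the other large heparan sulfate proteoglycan of basement membranes, was at 248 and 115 CPM in Elf5+ libraries and at 635, 604, 692 and 505 CPM in Elf5- libraries. Its log2 fold change of -1.75 (SE 0.37, edgeR adjusted p = 0.0426) was the smallest that passed, and it was lost when any library except Elf5+ library 1 was left out (adjusted p 0.05 to 0.149).

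Fbln1, fibulin-1, which binds fibronectin and nidogen, was at 43.1 and 12.6 CPM in Elf5+ libraries and at 235, 213, 388 and 129 CPM in Elf5- libraries. It fell by 3.12 on the log2 scale (SE 0.65, edgeR adjusted p = 0.0398), lost without any one of Elf5- libraries 1, 2 and 3 or Elf5+ library 2 (adjusted p 0.0633 to 0.105). Fbln2, fibulin-2, was at 453 and 911 CPM in Elf5+ libraries and at 1197, 1329.6, 1778 and 2328 CPM in Elf5- libraries. All Elf5- libraries were higher, but in both sorts the library of pair 2 was above that of pair 1, and the log2 fold change of -1.28 (SE 0.43) did not pass the test (edgeR adjusted p = 0.163).

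The order of the 52 genes by CPM per kb of exon also differed between the sorts. In Elf5+ cells the order began with Fn1 (319 ± 26.3 CPM per kb, SD, n = 2), Fbln2 (107 ± 50.9), Thbs1 (78.4 ± 73.3), Ecm1 (69.6 ± 67.8), Sparc (64.8 ± 41.7), Ltbp3 (54.9) and Agrn (49.7). Fn1 stood above Fbln2 in both libraries, and from Fbln2 to Agrn the values of neighbouring genes overlapped. In Elf5- cells it began with Fn1 (922 ± 192, n = 4), Sparc (911 ± 445), Bgn (360 ± 153), Fbln2 (260 ± 80.2), Postn (258 ± 101), Dcn (232 ± 146), Ecm1 (209 ± 61.7) and Lum (180 ± 124). Sparc, at 541 to 1557 CPM per kb, lay above Bgn, at 193 to 539, and the other neighbours among these 8 genes overlapped. Decorin ranked 24 in Elf5+ cells and 6 in Elf5- cells, and lumican ranked 22 in Elf5+ cells and 8 in Elf5- cells.

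**Figure D3:**
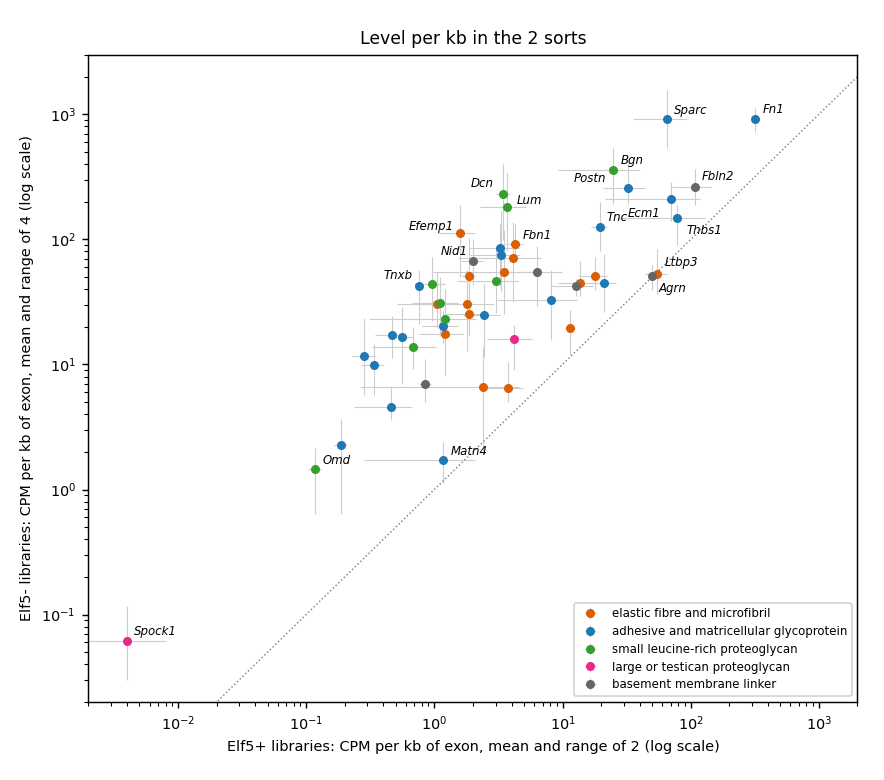
Mean CPM per kb of exon of each of the 52 genes in the 2 Elf5+ libraries (x axis) and the 4 Elf5- libraries (y axis), both on log axes; lines span the lowest to the highest library, colours give the role, the dotted line marks equal levels, and the left end of the Spock1 line leaves the plot at 0. Ltbp3 and Agrn lie on the dotted line at about 50 CPM per kb, while Dcn, Lum, Efemp1 and Tnxb lie farthest above it.

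The 2 pairs of T2 libraries, each with 1 library of either sort and the same title number, gave the direction separately. In 50 of the 52 genes the Elf5+ library was below its Elf5- partner in both pairs, against 34.3% of all genes tested. The median log2 ratio, with a prior count of 3, was -3.04 in pair 1 and -3.77 in pair 2, where all genes had medians of -0.02 and 0.02. The 2 exceptions were Thbs1, with -1.77 in pair 1 and 0.02 in pair 2, and Agrn, with 0.05 and -0.38. Small leucine-rich proteoglycans had medians of -3.44 in pair 1 and -4.74 in pair 2. With 1 library on each side of a pair, these ratios have no replicate check.

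**Figure D4:**
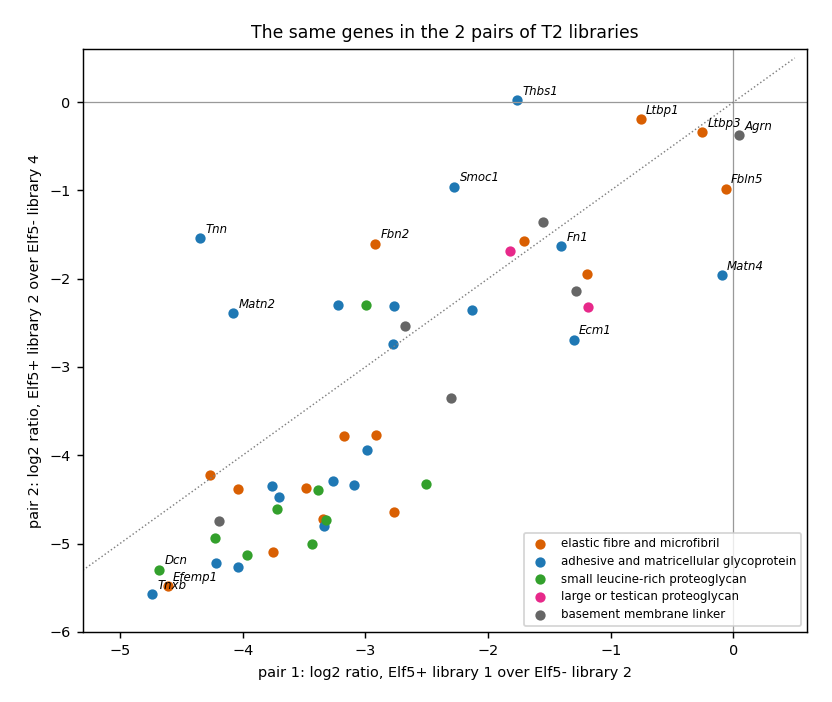
Log2 ratio of Elf5+ over Elf5- for each of the 52 genes in pair 1 (x axis) and pair 2 (y axis), with colours for the role and a dotted line of equal ratios. All points but Thbs1 and Agrn lie below 0 on both axes; Tnn and Matn2 differ more in pair 1, and Matn4 and Ecm1 more in pair 2.

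Libraries of the same sort were not alike. Within the Elf5- group both T1 libraries exceeded both T2 libraries in 27 of the 52 genes (51.9%), against 15.2% of all genes tested, and both T2 libraries were higher in 2 (14.1% of all genes). The first pattern held for 7 of 9 small leucine-rich proteoglycans and for 12 of 14 fibroblast markers. It also held for 6 of 9 pericyte and smooth muscle markers and for 2 of 18 luminal epithelial markers. Elf5- library 3 was the highest of the 4 for 38 of the 52 genes (22.5% of all genes), among them all 9 small leucine-rich proteoglycans, and for 10 of the 14 fibroblast markers. It was also the highest for 11 of 18 luminal epithelial, 5 of 10 basal and myoepithelial and 3 of 9 pericyte and smooth muscle markers. Elf5+ library 1 exceeded Elf5+ library 2 in 39 of the 52 genes (50.7% of all genes). The summed level of the 52 genes was 7436 and 8338 CPM in Elf5+ libraries, against 29214, 28234, 46547 and 29566 CPM in Elf5- libraries, a ratio of the Elf5- to the Elf5+ mean of 4.23. Among the Elf5- libraries the fibroblast markers and the luminal epithelial markers were each also highest in sum in library 3. Both lists were higher in Elf5+ library 1 than in Elf5+ library 2. The part of these markers in the spread was not tested.

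**Figure D5:**
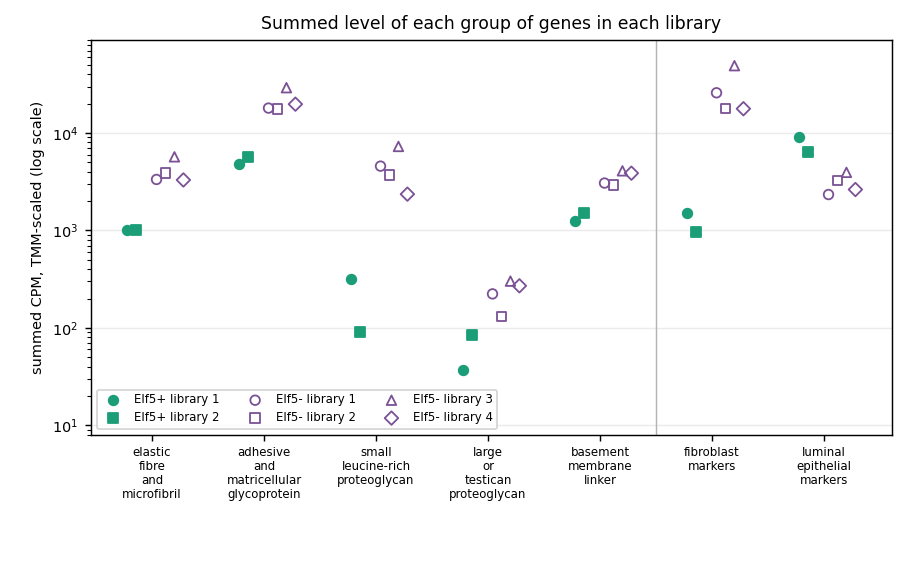
Summed TMM-scaled CPM of each role group and of the fibroblast and luminal epithelial marker lists in each library, on a log axis; filled green symbols are Elf5+ libraries and open purple symbols Elf5- libraries. Every role group and the fibroblast markers are lower in both Elf5+ libraries, the luminal epithelial markers are higher in both, and the small leucine-rich proteoglycans show a gap between the sorts most like that of the fibroblast markers.

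Other matrix and matrix-processing genes were counted in the same test. Of 47 further matrix glycoproteins tested 22 fell and 2 rose (3.79% and 0.585% of all genes), with a median log2 fold change of -2.69. Dpt (dermatopontin, which binds decorin) was at 5.98 and 4.72 CPM in Elf5+ libraries and at 468, 160.2, 522 and 195 CPM in Elf5- libraries, a log2 fold change of -5.97 (SE 0.70), and is also one of the fibroblast markers. Vtn (vitronectin), Spon2 (spondin-2) and Aebp1, a collagen-binding protein, fell by 5.57, 5.20 and 2.56. The 2 that rose were Emid1, an EMI-domain glycoprotein, and Mfge8, the milk fat globule glycoprotein that binds phosphatidylserine and is made by mammary epithelium. Mfge8 was at 1338 and 1594 CPM in Elf5+ libraries and at 534, 527, 588 and 672 CPM in Elf5- libraries, a log2 fold change of 1.34 (SE 0.25, edgeR adjusted p = 0.0273).

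Genes that modify these proteins were also counted, with 3.79% of all genes tested lower as the background. Of 16 genes of elastic fibre and fibronectin assembly 3 fell, all of them lysyl oxidases, which crosslink elastin and collagen: Loxl1 with a log2 fold change of -4.84 (SE 0.59), Lox with -4.61 (SE 0.73) and Loxl2 with -3.42 (SE 0.65). Lox was at 27.5 and 7.92 CPM in Elf5+ libraries and at 355, 463, 694 and 219 CPM in Elf5- libraries. Of 33 genes of glycosaminoglycan synthesis 3 fell, Papss2, which makes the sulfate donor, by 2.32, Ust, a uronyl 2-sulfotransferase, by 2.26 and Dse, which turns chondroitin into dermatan sulfate, by 1.70, and the median was -0.67. Of 12 cell surface proteoglycans 2 fell, Gpc3 (glypican-3) by 4.54 and Sdc2 (syndecan-2) by 2.86, and the median was -0.79. Of 17 other matrix proteoglycans and link proteins only Prg4, lubricin, fell (log2 fold change -4.34, SE 0.55), a share near that background, and the median was -1.98.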

How the data were processed

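RNA sequencing was analysed in 6 libraries, 2 Elf5+ and 4 Elf5-. The authors used Salmon and GRCm38.p5 to make the deposited table of estimated counts (expected counts, all whole numbers) per Ensembl gene, according to the submitters' processing notes. Not given in the sources used here: the version of Salmon, the annotation release, the strand setting and the rounding. Such a count divides reads between similar or overlapping genes by model, and 20 of the 52 genes share exon bases with another gene. Symbols were matched for 52220 of 52325 IDs.

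A filter on low counts (filterByExpr, by group; 0.222 CPM in at least 2 libraries) left 20684 genes. The quasi-likelihood test of edgeR (edgeR 4.0.16, limma 3.58.1, R 4.3.3) compared the groups, with TMM factors, no covariate and Benjamini-Hochberg adjustment over all genes tested, called below 0.05. CPM per kb uses merged exon length of GRCm38 genes. The standard error (SE) is the log2 fold change over the square root of F. The test was checked on simulated counts. Figures used Python 3.11.15 and matplotlib 3.10.9. Library totals lay between 9106660 and 53694884 counts. Low genes are least precise in the smallest library, and intervals (scipy 1.17.1) cover counting error only.

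In each role, full values are given for the 3 genes highest in CPM per kb, the 2 with the smallest and the 2 with the largest log2 fold change. Up to 4 genes of smallest p that passed are named from each other list. Genes outside this rule are given in shorter form. The 52 genes, the other lists and the marker lists were chosen with earlier results of these data known. The 18 alternatives comprised DESeq2 size factors, upper quartile factors, scaling to luminal epithelial genes, 2 other filters, robust dispersions, DESeq2 1.42.0, limma-voom, a block for the title number, T2 libraries with and without that block, and libraries left out. Promoters (300 bases) came from a RefSeq table of GRCm38.p6.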

Additional observations from a re-analysis of the deposited data

Results flagged for a closer look

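Among the 4 Elf5- libraries, library 3 stood apart from the other 3 for 5 of the 52 genes and for their summed CPM. The gap to the nearest library, as a share of the whole range of the 4, was 0.896 for Fbn1, 0.923 for Fbln5, 0.83 for Mfap4, 0.88 for Postn and 0.908 for Thbs2, all past Dixon's 95% critical value for 4 samples. For the summed CPM of the 52 genes the ratio was 0.927, with 46547 CPM in Elf5- library 3 and 28234 to 29566 CPM in the other Elf5- libraries. In all 6 results library 3 was the highest. Of 58 results checked 6 exceeded the critical value, and chance gives about 1 in 20 independent groups. The 58 results come from the same 4 libraries and include sums of the same genes, so they are not independent. The count of 6 therefore cannot be compared with that rate. The ratios were taken on CPM without a log scale, and Mfap4 exceeded the critical value only narrowly. The fibroblast markers were also highest in this library, at 49089 CPM in sum against 17750 to 25872 CPM in the other 3. So were the luminal epithelial markers, at 3946 CPM against 2336 to 3258 CPM. The part of either list was not tested.

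Thbs1 and Agrn had log2 ratios of opposite sign in the 2 pairs of T2 libraries, and the positive ratio of each was very small. The log2 ratio of Elf5+ over Elf5- was -1.77 in pair 1 and 0.022 in pair 2 for Thbs1, and 0.045 in pair 1 and -0.38 in pair 2 for Agrn. Each pair has 1 library of either sort, and the difference between the pairs was not tested.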

How the results depend on the processing

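No gene of the 52 was called higher in Elf5+ cells under any of the 18 alternatives. Scaled to luminal epithelial genes, which moved the median of all genes to -1.63, 13846 genes (66.9%) were lower and 10 higher, all 52 matrix genes were lower with a median of -5.53, and Ltbp3 was at -1.59 (0.1% of calls higher, against 13.4% in the test reported). Without the low-count filter 1331 genes were lower and 273 higher, and DESeq2 gave 1763 and 436. In the T2 libraries alone 0 genes were lower and 0 higher, 0 of the 51 matrix genes in that fit were called, their median was -3.27 and Ltbp3 was at -0.30. Without Elf5- libraries 1 and 2, 75 genes (0.372%) were lower and 0 higher (539 higher at an unadjusted p under 0.05), 10 of the 52 were lower and Ltbp3 was at -0.13. With 1 library left out in turn, called genes ranged from 197 to 811 lower and from 25 to 133 higher, members of the 52 called lower from 13 to 35, their median from -4.59 to -3.41, Ltbp3 from -0.27 to 0.36, Matn4 from -2.62 to 0.26 and Agrn from -0.15 to 0.08. Where an arm was left with 1 library, that library was assumed to vary like the rest. A block for the title number gave 1011 lower and 252 higher genes, with 38 of the 52 matrix genes lower; the same block in the T2 libraries gave 1368 and 549, with 44 of 51 lower (Ltbp3 at -0.29; 28.6% of calls higher). Whether the number pairs the libraries is not stated: deviations correlated at 0.62 and 0.71 within the T2 pairs, and at 0.14 and -0.03 for Elf5- libraries 1 and 3 with the Elf5+ library of their number (13769 genes). The cause of these differences was not tested. The other settings kept the counts of calls within 1.5 times those reported. Depth limits Spock1 and Omd, and Elf5- library 4 has the fewest counts.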

Other observations

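Acan, which encodes aggrecan, the large proteoglycan of cartilage, was higher in every T2 library than in either T1 library. It was chosen after its values were seen. In the T2 pairs the Elf5+ library was the lower, with log2 ratios of -0.52 in pair 1 and -0.26 in pair 2. No Elf5+ library carries T1, so code and sort cannot be fully told apart. Acan was at 412 and 531 CPM in Elf5+ libraries 1 and 2 and at 589 and 634 CPM in Elf5- libraries 2 and 4, all of which carry T2. In Elf5- libraries 1 and 3, which carry T1, it was at 66.5 and 122 CPM. The log2 fold change between the sorts was 0.42 (SE 0.82, edgeR adjusted p = 0.864).

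Pdgfra, a fibroblast marker that encodes a receptor of platelet-derived growth factor, differed less between the sorts than most of its list and was also singled out after its values were seen. It was at 40.7 and 177 CPM in Elf5+ libraries and at 249, 176, 366 and 238 CPM in Elf5- libraries. Elf5+ library 2 lay at the level of the lowest Elf5- library, and the log2 fold change was -1.24 (edgeR adjusted p = 0.331). The related receptor gene Pdgfrb was at 21.7 and 10.2 CPM in Elf5+ libraries and at 317, 357, 356 and 182 CPM in Elf5- libraries, a log2 fold change of -4.25 (edgeR adjusted p = 0.0112).

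Members of the same role differed in how far apart the sorts lay. Of 8 pairs compared, all chosen after the values were seen, 6 had ratios that did not overlap between the sorts. The ratios of Fbn1 to Fbn2 and of Fbln1 to Fbln2 overlapped. With 15 splits of 2 against 4 libraries, an exact test cannot give a p below 0.133. Nid1 and Agrn share a role only. The log2 ratio of Nid1 to Agrn within a library was -4.76 and -5.20 in Elf5+ libraries and 0.64, -0.60, 0.50 and -0.94 in Elf5- libraries. That of Efemp1 to Efemp2 was -3.75 and -3.50 in Elf5+ libraries and 1.25, -0.58, 0.58 and -0.42 in Elf5- libraries. In each of the 8 pairs the gene with the more negative log2 fold change is given first, which fixes the direction. A ratio within a library shows unequal change, not which gene changed.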
